A study of Mus musculus with 8 samples.

Results

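The Zscan4 cluster was followed through RNA-seq libraries of mouse embryonic stem cells (mESCs) by its 6 member genes, Zscan4a, Zscan4b, Zscan4c, Zscan4d, Zscan4e and Zscan4f. The members were taken by gene symbol, without regard to their values, from the 24062 genes and 1153 transposable element (TE) subfamilies counted in each library. All 6 were among the 16245 features that had enough counts to be tested. The libraries came from 1 line of mESCs with a conditional Setdb1 allele (line #33-6), with 2 biological replicates in each of 4 conditions. WT mESCs were untreated cells of that line. UNC0642-treated mESCs received 2 µM UNC0642, an inhibitor of the H3K9 methyltransferases G9a and GLP, for 3 days. Setdb1 KO mESCs received 800 nM 4-hydroxytamoxifen (4-OHT), which induces Cre-mediated deletion of Setdb1, for 5 days. UNC0642-treated Setdb1 KO mESCs, called the combination below, received both agents, with UNC0642 again for 3 days. For these, the sample labels give 4-OHT for 2 days before UNC0642 and the study's methods give 5 days in all. As WT mESCs received no 4-OHT, effects of 4-OHT itself and of the deletion cannot be told apart.

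Zscan4 genes encode proteins with a SCAN domain and zinc fingers. In the embryo they are transcribed in a short burst at the 2-cell stage, when the zygotic genome is first activated. In mESC cultures a small and changing minority of cells enters a 2-cell-like state in which Zscan4 genes and the MERVL family of endogenous retroviruses are transcribed, and ZSCAN4 is known for its part in telomere maintenance. G9a and GLP (genes Ehmt2 and Ehmt1) place H3K9me2, and SETDB1 places H3K9me3, both marks of silent chromatin. The study reports that part of the H3K9me2 in mESCs also depends on SETDB1.

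The members lie on both strands of mouse chromosome 7 over 608.1 kb (GRCm38, GENCODE M21), each with 4 exons in its longest transcript and none overlapping another annotated gene. Zscan4a (chr7:10794242-10799057), Zscan4b (chr7:10900740-10905050), Zscan4d (chr7:11161374-11166159) and Zscan4e (chr7:11306378-11310682) are on the minus strand. Zscan4c (chr7:11005745-11010547) and Zscan4f (chr7:11397915-11402318) are on the plus strand. Zscan4a is annotated as an unprocessed pseudogene by GENCODE and as a transcribed pseudogene by RefSeq, and Zscan4e as protein coding by GENCODE and as a pseudogene by RefSeq. The remaining members are protein coding in both.

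The 250 bases before the start of 4 members were taken from RefSeq (GRCm38.p6) and are shown because the members moved together in these data. The windows are chr7:10905051-10905300 on the minus strand for Zscan4b, chr7:11005495-11005744 on the plus strand for Zscan4c, chr7:11166149-11166398 on the minus strand for Zscan4d and chr7:11397665-11397914 on the plus strand for Zscan4f. Capitals mark TATAAA and TGATTNAA on either strand, written 5′ to 3′ in the direction of the gene.
Zscan4b: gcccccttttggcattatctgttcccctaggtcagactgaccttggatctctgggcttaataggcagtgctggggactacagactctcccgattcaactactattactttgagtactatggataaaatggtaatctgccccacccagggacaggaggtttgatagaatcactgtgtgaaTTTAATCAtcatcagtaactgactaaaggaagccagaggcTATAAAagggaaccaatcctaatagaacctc
Zscan4c: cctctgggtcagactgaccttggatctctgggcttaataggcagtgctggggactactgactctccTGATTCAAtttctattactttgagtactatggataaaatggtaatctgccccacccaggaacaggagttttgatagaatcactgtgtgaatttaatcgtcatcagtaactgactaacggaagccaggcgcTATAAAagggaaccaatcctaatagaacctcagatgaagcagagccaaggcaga
Zscan4d: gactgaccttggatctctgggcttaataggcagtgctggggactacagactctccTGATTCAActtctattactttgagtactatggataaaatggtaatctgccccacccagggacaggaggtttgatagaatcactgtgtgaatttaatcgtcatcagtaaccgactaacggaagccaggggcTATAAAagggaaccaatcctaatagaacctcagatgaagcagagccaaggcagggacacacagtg
Zscan4f: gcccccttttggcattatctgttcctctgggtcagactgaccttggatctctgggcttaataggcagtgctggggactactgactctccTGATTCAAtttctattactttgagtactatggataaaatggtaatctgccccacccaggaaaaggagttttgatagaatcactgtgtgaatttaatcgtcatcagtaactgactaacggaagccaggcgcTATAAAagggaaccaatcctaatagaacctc
These windows matched each other at 94.7% to 99.6% of aligned bases over 6 pairs, with Zscan4c and Zscan4f the closest. TATAAA, the core of a TATA box, was present in 4 of 4 windows and in 12.4% of 32851 windows of the same length. It lay 31 bases before the start in Zscan4b and Zscan4f, 54 in Zscan4c and 65 in Zscan4d. TGATTNAA is contained in the longer motif of DUX and was present in 2.6% of all windows. Its letters were chosen after these 4 windows had been read, so its presence in 4 of 4 is not a test of enrichment. The match lay on the opposite strand only in Zscan4b, and on the strand of the gene in Zscan4c, Zscan4d and Zscan4f. The longer motif, in which TCA follows TGATTNAA, was found in 0 of 4 and in 0.0304% of all windows. As near copies, the 4 windows are not separate observations for any of these letters. Both strands were searched, and the matches are descriptions of these letters only.

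The members share most of their sequence, so the division of reads among them is uncertain. Between 2 members, the longest transcripts were identical at 96.6% to 99.7% of aligned bases (median 97.6%, 15 pairs). Zscan4b and Zscan4e differed at 5 of 1722 bases and Zscan4c and Zscan4f at 7 of 1806. A 150-base window, the length of 1 read, occurred in another gene for 86.2% of the windows of Zscan4f, 77.4% of Zscan4e, 68.4% of Zscan4b and 61.0% of Zscan4c, but only for 25.1% of Zscan4a and 13.0% of Zscan4d. Zscan4d, with 87.0% of its windows found nowhere else among the annotated transcripts, was thus the member whose counts could be assigned best, and Zscan4f, with 13.8%, the one whose counts could be assigned least. The annotated copies Zscan4-ps1, Zscan4-ps2 and Zscan4-ps3 were not analysed here. Of the windows of Zscan4f, 69.0% also occur in Zscan4-ps2, and whether reads of these copies were counted under the members was not tested.

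**Figure D1:**
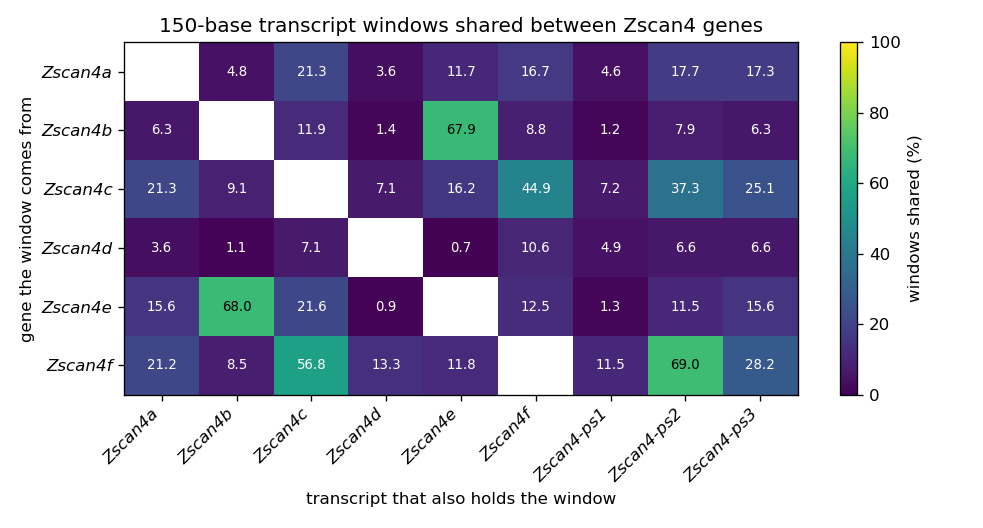
Percent of all 150-base windows of each Zscan4 transcript (rows) that also occur in the transcript of another member or of an annotated copy (columns). The b and e pair (67.9% and 68.0%) and the f and ps2 pair (69.0%) share most, and the row of Zscan4d stays at or below 10.6%.

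The libraries held between 11702590 and 26807807 counts, so that 3 counts, taken as the floor of detection, equal 0.108 to 0.311 CPM (counts divided by library size, scaled by the TMM factors of edgeR). Counting error alone is covered by the floor. The 12 markers of mESCs were detected in all conditions and summed to 4814 to 7192 CPM. Counts of Setdb1 were 1946 and 3528 in WT, 1117 and 927 in Setdb1 KO and 589 and 927 in the combination. Its log2 fold change in Setdb1 KO over WT mESCs was -1.59 (SE 0.44, edgeR adjusted p = 0.181), and the adjusted p was 0.0164 with the replicate number as a block. These counts cover the whole gene, including any part outside the deletion.

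All Zscan4 genes had low counts in WT mESCs and higher ones in both libraries of every other condition. Zscan4d, the member with the most distinctive sequence, had 19 and 109 counts in replicates 1 and 2 of WT mESCs. Its counts were 3067 and 1056 after UNC0642 alone, 1567 and 444 after deletion of Setdb1 alone, and 2750 and 3221 after both. Relative to library size, this was 1.65 and 3.93 CPM, 144 and 38.0 CPM, 66.3 and 24.4 CPM, and 285 and 118 CPM, respectively. No library of a treated condition came near either WT library, while UNC0642-treated mESCs overlapped with both KO conditions. Both libraries of the combination lay above both WT libraries in 6 of 6 members and in 22.3% of features.

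Zscan4c, which collected the most counts in every library, had only 59 and 401 of them in WT mESCs, but 9220 and 3704 with UNC0642. There were 4830 and 1394 counts with Setdb1 deleted and 6988 and 7835 in the combination. Zscan4f, of which most windows are shared with Zscan4c, had 10 and 98, 2398 and 1006, 1206 and 375, and 1701 and 1979 counts in the same order of conditions. These genes therefore followed the pattern of Zscan4d.

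Zscan4b had 17 and 120 counts in WT, 2781 and 1154 in UNC0642-treated, 2066 and 596 in Setdb1 KO, and 2924 and 2412 in combination libraries. Its near copy Zscan4e had the lowest counts of the cluster, with 8 and 45, 1178 and 444, 811 and 187, and 1156 and 777. Zscan4a, the annotated pseudogene, was not silent and had 26 and 210, 3712 and 1676, 2051 and 526, and 2604 and 3185 counts. Over the 8 libraries, Pearson correlations of log2 CPM between 2 members were 0.990 to 0.999. This describes 8 points that share their libraries and, for most pairs, part of their reads.

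**Figure D2:**
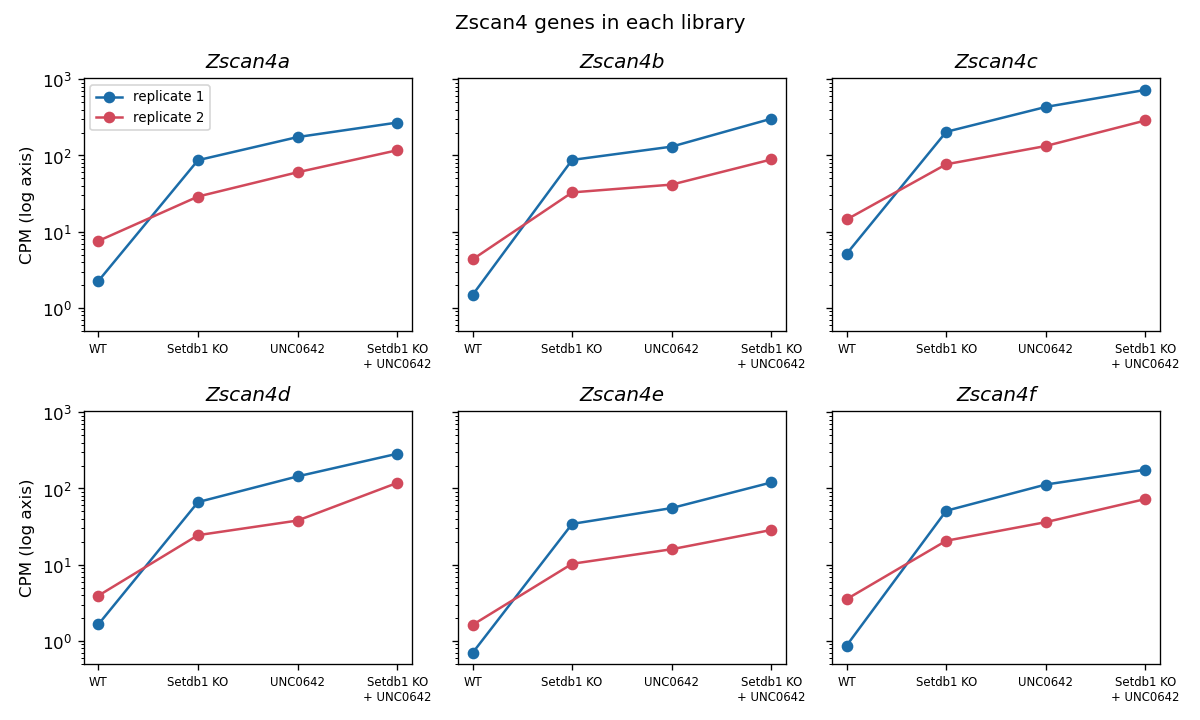
CPM (log axis) of each Zscan4 gene in the 8 libraries, by condition on the horizontal axis, with lines joining the libraries of replicate 1 (blue) and replicate 2 (red). Both lines rise from WT through Setdb1 KO and UNC0642 to the combination in all 6 panels, and they cross between WT and Setdb1 KO.

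Summed over the 6 members, the level was 12.1 and 35.5 CPM in WT, 530 and 194 CPM with Setdb1 deleted, 1051 and 325 CPM with UNC0642 and 1881 and 713 CPM with both. The mean was 23.8 ± 16.5 CPM in WT (SD, n = 2), 362 ± 238 CPM in Setdb1 KO, 688 ± 513 CPM in UNC0642-treated mESCs and 1297 ± 825 CPM in the combination. Relative to the WT mean these were 15.2, 28.9 and 54.5 times, and 13.4, 27.0 and 44.4 times when libraries were scaled by their total counts. The cluster took 0.152% of all counts in its highest library and 0.00119% in its lowest. In such bulk libraries, more cells in the 2-cell-like state and more Zscan4 RNA per cell cannot be told apart.

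Replicates differed widely, and in opposite directions in WT and treated cells. Replicate 1 had 3.23 times the summed CPM of replicate 2 with UNC0642, 2.74 times with Setdb1 deleted and 2.64 times in the combination, but 0.341 times in WT mESCs. The same direction was seen in each of the 6 members. On the log2 scale, replicate 1 minus replicate 2 was between -1.88 and -1.09 in WT and between 1.21 and 2.07 in the other conditions.

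Within each replicate number, the order of the conditions was the same. WT mESCs were lowest, followed by Setdb1 KO mESCs, UNC0642-treated mESCs and the combination, in 6 of 6 members in replicate 1 and in 6 of 6 members in replicate 2. The share of all features with this order was not counted. As the members share libraries and reads, they are not 6 separate observations. The summed CPM of the combination was 3.55 and 3.68 times that of Setdb1 KO mESCs in replicates 1 and 2, and 1.79 and 2.19 times that of UNC0642-treated mESCs. UNC0642-treated mESCs had 1.98 and 1.68 times the level of Setdb1 KO mESCs. These ratios between treated conditions were close in both replicates. Those over WT were not, being 86.8 and 9.17 for UNC0642, 43.8 and 5.46 for Setdb1 KO and 155 and 20.1 for the combination.

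The comparison of UNC0642-treated Setdb1 KO with WT mESCs asked whether losing both pathways raised Zscan4 expression. All 6 members rose, passing an adjusted p of 0.05 and a fold change above 10, as did 2.87% of all features tested. Zscan4d rose most, by a log2 fold change of 6.14 (SE 0.94, adjusted p = 0.00948), or 70.5-fold. Zscan4b rose by 6.04 (SE 0.99, adjusted p = 0.012) and Zscan4e by 5.94 (SE 1.06, adjusted p = 0.0164). Zscan4a rose least, by 5.27 (SE 0.92, adjusted p = 0.0151), or 38.6-fold. The members' median was 5.85, and the median over all features was -0.01. The order among the members was within their errors. The 6 calls rested on both WT libraries, as 0 members passed without WT replicate 1 (log2 fold changes 4.66 to 5.67, adjusted p 0.103 to 0.145) and 0 without WT replicate 2 (6.43 to 7.17, adjusted p 0.0656 to 0.122). With the block, 6 of 6 passed, beside 4.22% of features.

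The comparison of UNC0642-treated with WT mESCs, which shares the WT libraries, asked what inhibition of G9a and GLP did alone. The members had log2 fold changes from 4.55 for Zscan4a to 5.02 for Zscan4f (median 4.86, over all features -0.02), with SEs of 0.89 to 1.02. In edgeR 0 of 6 passed the adjusted threshold (adjusted p 0.195 to 0.246), and neither did any other feature (0%). At an unadjusted p under 0.05, 6 of 6 members and 2.96% of all features were higher. Both UNC0642 libraries lay above both WT libraries in all 6 members and in 13.7% of features. Under a replicate block the adjusted p was 0.0531 to 0.0872 and still 0 members passed, beside 0.135% of features. DESeq2 on all 8 libraries called 6 of 6, beside 0.591% of features, with fold changes of the same size (log2 4.54 to 5.02, adjusted p 1.48e-07 to 5.79e-06).

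For Setdb1 KO over WT mESCs, log2 fold changes ran from 3.53 for Zscan4a to 4.33 for Zscan4b (median 3.98, over all features -0.02), with SEs of 0.85 to 0.99. In edgeR 0 of 6 members passed (adjusted p 0.0707 to 0.111), against 0.837% of features, and 6 of 6 had an unadjusted p under 0.05, against 7.07%. The libraries did not overlap in 6 of 6 members and in 17.5% of features. This call differed between fits. With the replicate block, all 6 passed the adjusted p (0.0173 to 0.048), as did 3.8% of features, and 5 also had a fold change above 10, beside 1.45% of features, the exception being Zscan4a at 8.59-fold. DESeq2 on all 8 libraries called 6 of 6, beside 1.61% of features, and edgeR on the 4 libraries compared also called 6 of 6, beside 1.34%. Without UNC0642 replicate 1 or replicate 2, although neither belongs to this comparison, 4 members passed in each case, and 1 passed without replicate 1 of the combination.

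**Figure D3:**
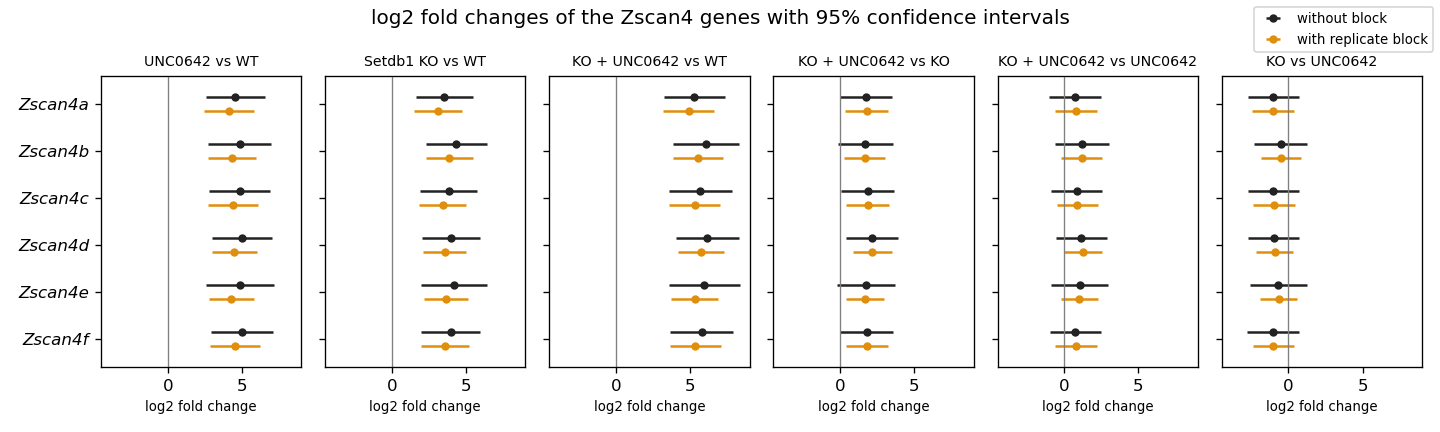
log2 fold changes of the 6 Zscan4 genes (rows) in 6 comparisons (panels) with 95% confidence intervals from edgeR, without (black) and with (orange) the replicate number as a block. Intervals of the 3 comparisons with WT lie above 0, and those between UNC0642-treated mESCs and either KO condition span or touch 0 without the block.

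Between treated conditions no member passed. UNC0642-treated Setdb1 KO over Setdb1 KO mESCs had log2 fold changes of 1.70 to 2.15 (edgeR adjusted p 0.897 to 1), and 0 of 6 members and 0% of features were called. These values moved with single libraries, to 0.35 to 1.38 without replicate 1 of the combination and 2.57 to 3.04 without Setdb1 KO replicate 1. The libraries of the combination were above those of Setdb1 KO in 5 of 6 members, all but Zscan4e, and in 12.2% of features, and Zscan4c, Zscan4d and Zscan4f had an unadjusted p under 0.05 (2.79% of features). With the block the adjusted p was 0.204 to 0.375 and 0 members passed, beside 0.0923% of features, and DESeq2 called 0 members. Over UNC0642-treated mESCs the combination had log2 fold changes of 0.72 to 1.19, with 95% intervals reaching from -1.0 to 2.99. Here 0 members passed, against 0.825% of features, and 0 had an unadjusted p under 0.05 (6.37% of features). Setdb1 KO over UNC0642-treated mESCs gave -1.05 to -0.52, with intervals from -2.80 to 1.26, and again 0 members were called higher (0.406% of features) or lower (0.0123%), with 0 lower at an unadjusted p under 0.05 (1.73%). DESeq2 called 0 in both. The steady ranking within replicates was therefore not accompanied by differences past the threshold, and intervals this wide do not show that the conditions were alike.

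The interaction term asked whether the combination differed from the product of the separate fold changes. It was negative in all 6 members, from -3.22 for Zscan4f to -2.81 for Zscan4a on the log2 scale (SE 1.09 to 1.25), so the combination lay below that product. Its median over the members was -1.96 without UNC0642 replicate 1 (unadjusted p 0.0671 to 0.14) and -3.93 without WT replicate 2 (unadjusted p 0.00748 to 0.0398), the lowest and highest sizes with 1 library left out. With all 8 libraries, unadjusted p-values were 0.018 to 0.0323, and 0.566% of features had a negative interaction at an unadjusted p under 0.05. The adjusted p was 1 for every member in edgeR, with and without the block, and in DESeq2, so no interaction was called.

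The division of counts within the cluster stayed within a narrow range while its summed CPM differed 155 times between the extreme libraries. Zscan4c held 38.5% to 42.4% of the cluster's counts in the 8 libraries, Zscan4a 14.4% to 21.4%, Zscan4d 11.1% to 16.6%, Zscan4b 12.2% to 16.9%, Zscan4f 7.19% to 11.1% and Zscan4e 4.00% to 6.47%. Per kb of exon, Zscan4c was also highest in each condition, with mean levels of 4.31, 61.8, 124 and 223 CPM per kb in the order WT, Setdb1 KO, UNC0642 and combination, and Zscan4e was lowest with 0.647, 12.4, 19.9 and 41.4 CPM per kb. These levels carry the uncertainty of shared reads.

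Shares of the cluster sum varied by a few percentage points between conditions, and those of Zscan4d and Zscan4b are given as examples. Zscan4d made up 15.2% and 16.6% of the cluster in UNC0642-treated Setdb1 KO mESCs (exact binomial 95% intervals 14.7% to 15.7% and 16.1% to 17.1%). In the other conditions it held 11.1% to 13.7%. Its interval in WT replicate 1, with 19 of 139 counts, was 8.43% to 20.5% and covers both values of the combination. Zscan4b made up 16.5% and 16.9% in Setdb1 KO mESCs against 12.4% and 12.8% in UNC0642-treated mESCs, and the libraries did not overlap. Between these conditions the libraries did not overlap for Zscan4a, Zscan4c, Zscan4e and Zscan4f either, but they did for Zscan4d. The shares in a library are parts of the same sum, so the members are not separate observations here. How often so few libraries separate in this way by chance was not counted, so no difference is concluded from it. In the combination Zscan4b had 16.1% and 12.4%, so these replicates disagreed by more than counting error. Adding Zscan4e to its near copy Zscan4b, which removes the question of how reads were split between them, gave 23.0% and 22.2% in Setdb1 KO, 17.7% and 17.7% in UNC0642-treated, 22.5% and 16.4% in the combination and 18.0% and 16.8% in WT mESCs. Zscan4c and Zscan4f together stayed between 47.9% and 52.1%. The intervals cover counting error only, and differences in share between conditions were not tested.

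**Figure D4:**
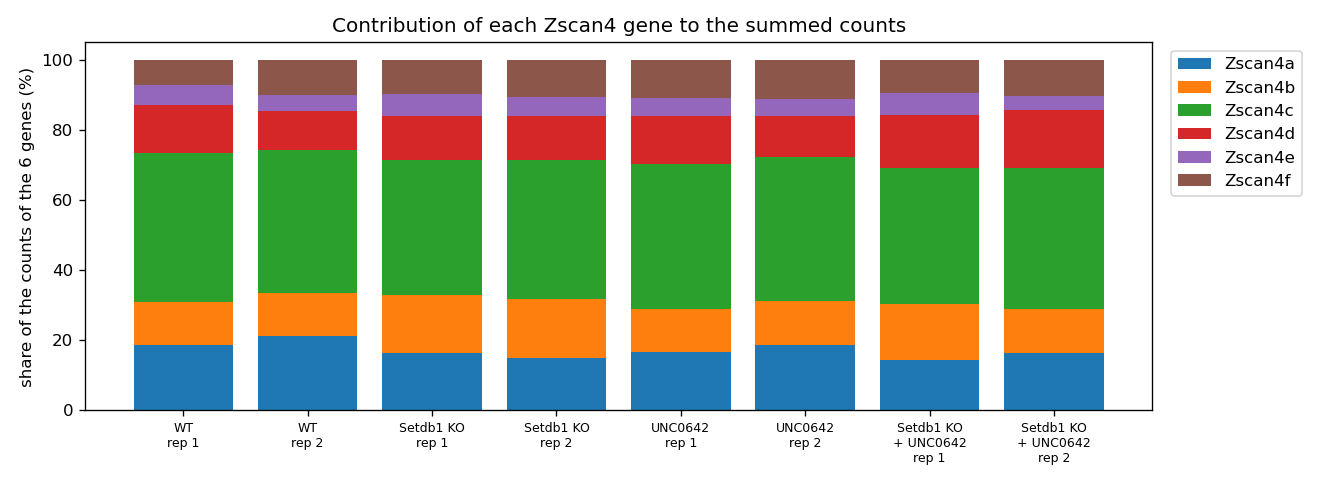
Stacked bars of the share (%) of the cluster's summed counts held by each Zscan4 gene in the 8 libraries. Zscan4c holds 38.5% to 42.4% throughout, and the segment of Zscan4d is widest in both libraries of UNC0642-treated Setdb1 KO mESCs (15.2% and 16.6%).

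Other genes of the 2-cell programme were examined from a list of 41, of which 34 were tested. In UNC0642-treated Setdb1 KO mESCs 25 of 34 rose past both thresholds (2.87% of all features), with a median log2 fold change over WT of 5.45, beside 5.85 for the Zscan4 genes. Usp17lb and Usp17le, members of a multicopy family of deubiquitinase genes, rose by 8.10 (SE 0.77, adjusted p = 0.00193) and 5.67 (SE 0.58, adjusted p = 0.00277). Gm8300 and BB287469, related to the translation factor Eif1a, rose by 5.93 and 5.88, whereas Eif1a itself, with 2408 and 4575 counts in WT mESCs, was at 0.50 (SE 0.71, adjusted p = 0.801). In Setdb1 KO mESCs 4 of 34 passed (median 3.29), beside 0.837% of features, or 8 with the block, beside 1.45%. In UNC0642-treated mESCs 0 of 34 passed (median 4.14), beside 0% of features, or 6 with the block, beside 0.135%. At an unadjusted p under 0.05, 28 of 34 were higher in each, beside 7.07% of features in Setdb1 KO and 2.96% with UNC0642. DESeq2 on the 4 libraries compared called 10 in Setdb1 KO, beside 1.34% of features, and 19 with UNC0642, beside 0.512%.

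The retroviral transcripts of the 2-cell-like state had the same order within replicates. MERVL-int, the internal part of MERVL, was at 97.9 and 270 CPM in WT, 1916 and 709 CPM without Setdb1, 5521 and 2234 CPM with UNC0642 and 11086 and 4363 CPM in the combination. As for Zscan4, replicate 1 was the higher one in each treated condition and the lower one in WT. Its log2 fold change in the combination was 5.39 (SE 0.95, adjusted p = 0.0155), and that of MT2_Mm, its long terminal repeat, was 5.02 (SE 0.83, adjusted p = 0.0123). MERVL_2A-int, also listed, had the same order but rose less, by 1.67 (SE 0.52, edgeR adjusted p = 0.122, or 0.00949 with the block). Its WT replicates were alike, at 71.6 and 69.1 CPM.

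Dux, which encodes a transcription factor that activates the 2-cell programme, had low counts and another pattern. There were 3 and 53 counts in WT, 35 and 122 with UNC0642, 56 and 209 in Setdb1 KO and 28 and 177 in combination libraries. Replicate 2 was thus higher in each condition, unlike Zscan4 in the treated ones, and Setdb1 KO mESCs held the highest library. The log2 fold changes over WT were 1.4, 2.60 and 2.05 for UNC0642, Setdb1 KO and the combination (adjusted p = 1, 0.486 and 0.349). With the block the last 2 had adjusted p of 0.0244 and 0.0200, without reaching a 10-fold change. Dux belongs to a multicopy repeat, so its counts are uncertain.

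Among 33 tested genes for regulators of Zscan4 and the 2-cell-like state, Dux and Setdb1 included, 0 passed both thresholds in edgeR in any comparison with WT. DESeq2 called 0. At an unadjusted p under 0.05, 0 were higher and 0 lower with UNC0642, 2 and 1 in Setdb1 KO and 1 and 2 in the combination. Those higher were Dux and Tbx3 in Setdb1 KO and Tbx3 in the combination. Those lower were Setdb1, the deleted gene, in both and Ehmt2 in the combination. Of all features, 2.96% were higher and 0.394% lower at this p with UNC0642, 7.07% and 1.63% in Setdb1 KO and 10.9% and 7.11% in the combination. Trim28, the corepressor that recruits SETDB1, had log2 fold changes of 0.16, -0.17 and -0.08 in the same order (SE 0.58 each). Its WT libraries were far apart, at 395 and 1301 CPM in replicates 1 and 2, and all treated ones lay between, at 707 to 1119 CPM. These values therefore do not show that Trim28 was unchanged. Ehmt2 was at -0.79, -0.55 and -1.29 (adjusted p = 1, 0.976 and 0.185), the last with an adjusted p of 0.0235 under the block. Rif1, a telomere-associated protein that also represses Zscan4, was at 0.54, 0.78 and 0.94 (adjusted p = 1, 0.920 and 0.452).

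Genes that resemble Zscan4 in name, and the nearest tested genes on chromosome 7, had no calls. Of 19 other tested SCAN zinc finger genes, 0 passed both thresholds in any comparison with WT, and DESeq2 called 0. Of all features, 0% passed as higher with UNC0642, 0.837% in Setdb1 KO and 2.87% in the combination. For lists as short as those in this paragraph, 0 calls are near these shares. At an unadjusted p under 0.05, 1 gene, Zkscan8, was higher with UNC0642 and in Setdb1 KO mESCs (1.19 and 1.33), beside 2.96% and 7.07% of features. At this p, 1 was lower in the combination (Zkscan16, -1.99), beside 7.11% of features. Zscan10, a factor of pluripotent cells, was at 0.44, 0.17 and 0.13 (SE 0.73 each). Of the nearest tested protein-coding genes, 4 on each side, 0 were called in edgeR or in DESeq2. Their starts lay 298848 to 3622912 bases before the cluster and 1020433 to 1416540 bases after it, so genes close to the cluster were not examined. The closest, Zik1, ends 298848 bases before Zscan4a and had 277 and 507 counts in WT, 693 and 658 with UNC0642 and 579 and 434 in Setdb1 KO. Of 17 tested telomere genes, 0 passed both thresholds. At an unadjusted p under 0.05, 0 passed with UNC0642 (2.96% of features higher, 0.394% lower) or in Setdb1 KO (7.07% and 1.63%). In the combination 1 was lower (Smc1b, -1.82), beside 7.11% of features. Tert, the catalytic subunit of telomerase, was at -0.47, -0.83 and -1.46, the last with an adjusted p of 0.387, or 0.0324 with the block.

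**Figure D5:**
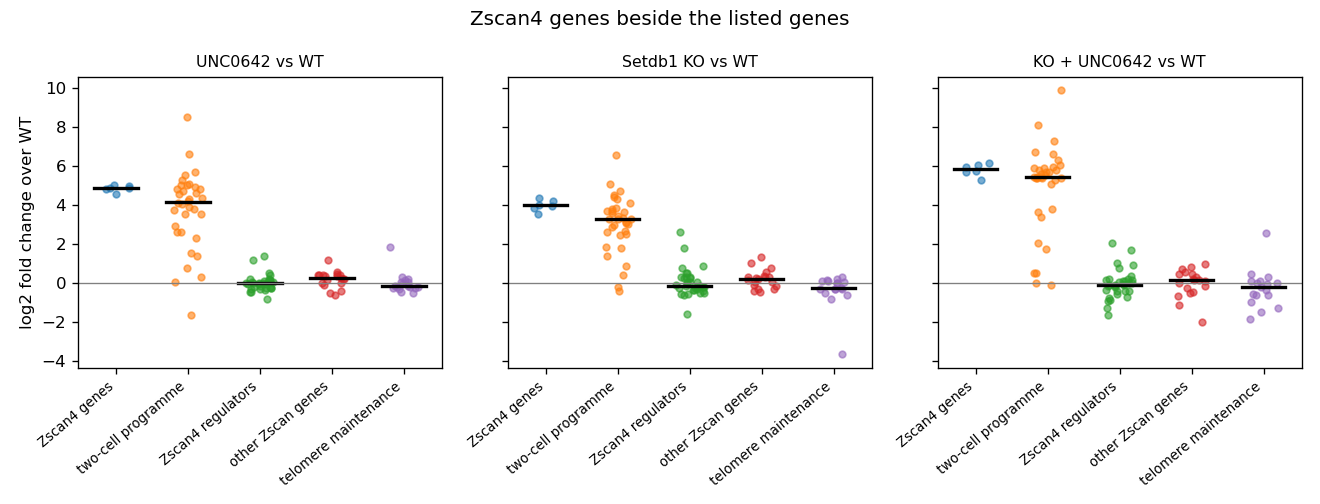
log2 fold changes over WT of the Zscan4 genes and of the tested genes of 4 lists (points, with random horizontal spread) in UNC0642-treated mESCs, Setdb1 KO mESCs and the combination; black bars are medians. Medians of the Zscan4 genes are 4.86, 3.98 and 5.85 and those of the 2-cell programme 4.14, 3.29 and 5.45, while those of the regulators, other Zscan genes and telomere genes lie between -0.26 and 0.28.

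The genes whose log2 CPM followed the Zscan4 sum most closely over the 8 libraries, out of 15307, were Gm21319 (Pearson r = 0.991), Gm8300 (0.988), Tcstv1 (0.987), Gm2016 (0.987), Gm5662 (0.987), Dcdc2c (0.987), Pramef6 (0.984), Gm2022 (0.984), AF067061 (0.984) and Gm12794 (0.982). Of these 10, 5 were on the list of the 2-cell programme. After each library was centred on its replicate number, 4 of the 10 stayed among the 10 closest. Dcdc2c, with 64 and 311 counts in WT and 4870 and 4763 in the combination, was the most abundant of them. Dux had a correlation of 0.544. These values describe 8 points in 4 conditions, and several of the genes have near copies of their own.

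Markers of other cell types did not follow the Zscan4 order. The 8 primitive endoderm markers summed to 28.9 to 114 CPM in WT, 104 to 133 CPM with UNC0642, 18.0 to 38.3 CPM in Setdb1 KO and 32.0 to 32.6 CPM in the combination. In WT and UNC0642-treated mESCs, the 8 trophectoderm markers summed to 77.2 to 83.4 and 47.4 to 54.5 CPM. In Setdb1 KO and the combination they summed to 60.3 to 134 and 27.4 to 69.2 CPM. The 8 fibroblast markers summed to 28.2 to 50.4, 18.5 to 49.0, 14.4 to 66.9 and 18.7 to 42.1 CPM in the same order. In the combination over WT mESCs, 3 of 7 tested fibroblast markers had a positive log2 fold change (median -0.43). Lum had no counts in WT mESCs and 28 and 39 in the combination, and Pdgfrb had 67 and 133, and 11 and 15. Col1a1, Col1a2 and Fbln1 had higher CPM in replicate 2 of each condition (Col1a2 0 and 141 counts in WT), and Pdgfrb and Lum did not. The part of these markers in the Zscan4 differences was not tested.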

How the data were processed

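Poly(A) RNA of 8 mESC libraries was sequenced as 150-base read pairs. Per the labels and methods, the authors trimmed reads with Trim Galore 0.3.7, mapped them with TopHat2 to GRCm38 and deposited raw TEtranscripts counts per gene and TE subfamily, 1 table per library. Per the methods, counting used default parameters, and the gene annotation was not given in the sources used here. TEtranscripts can divide a read among TE copies, and how reads shared between Zscan4 genes were assigned was not tested.

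The filterByExpr function (at least 10 counts, 15 in total) left 15313 genes and 932 subfamilies. Quasi-likelihood models in edgeR 4.0.16 (R 4.3.3, TMM, prior count 0.125) were fitted to all 8 libraries, with Benjamini-Hochberg adjustment over all features. A call needed both an adjusted p below 0.05 and more than a 10-fold change. SEs came from the log2 fold change and its F statistic. DESeq2 1.42.0, a replicate block and other settings were alternatives, and the edgeR fit was tested on simulated data. Replicate numbers come from the labels. Deviations of same-numbered libraries correlated at 0.295 to 0.670 in 6 pairs of conditions over 15313 genes. The comparisons within a replicate number and the block take the numbers as pairs. The main edgeR fit has no block and leaves this pairing out, so the values with the block are printed where they change a call. Identities, windows and promoters were computed with Biopython 1.88.

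The members and gene lists were chosen with earlier results of these data known. Named genes of a list are those with the smallest p or the highest mean count. Dux, Tbx3 and the TE subfamilies were named in addition, and members are named in full.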

Additional observations from a re-analysis of the deposited data

How the results depend on the processing

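With edgeR on all libraries, 0 members passed for UNC0642-treated over WT mESCs, and 6 passed without the expression filter, with DESeq2 on all 8 libraries and with DESeq2 on the 4 libraries compared, and 2 with the block and total counts together. For Setdb1 KO over WT mESCs, 0 became 5 with the replicate block, 5 with the block and total counts, 6 with the block at any fold change, 6 without the expression filter, 6 with either DESeq2 fit and 6 with edgeR on the 4 libraries compared, and 0 to 4 when 1 library was left out. For UNC0642-treated Setdb1 KO over WT mESCs, 6 became 0 to 6 when 1 library was left out, with 0 only without either WT library. Of the 2-cell programme, 0 genes called with UNC0642 became 6 with the block and 19 with DESeq2 on 4 libraries, and 4 in Setdb1 KO became 8 and 10. The block moved no other count of members, 2-cell programme, regulator, SCAN, telomere or neighbouring genes called over WT by over 1.5 times. The background counts over all features did move with it, for example from 0.825% to 1.55% called higher for the combination over UNC0642-treated mESCs and from 0.406% to 0.819% for Setdb1 KO over UNC0642-treated mESCs. The settings with the block together with total counts or any fold change were chosen after seeing the data.

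Of 786 member values under alternatives, read against the adjusted p threshold alone, 701 kept direction and side, 65 gained and 12 lost the threshold and 8 changed sign. None of the sign changes concerned a comparison with WT. With 1 library left out, the log2 fold change of the combination over UNC0642-treated mESCs was between -0.012 and 1.67 for Zscan4a, -0.33 and 2.20 for Zscan4e and -0.042 and 1.77 for Zscan4f, below 0 only without replicate 1 of the combination. That of Setdb1 KO over UNC0642-treated mESCs was between -1.40 and 0.54 for Zscan4b, -1.89 and 0.079 for Zscan4c, -1.91 and 0.26 for Zscan4d and -1.80 and 0.49 for Zscan4e, above 0 only without UNC0642 replicate 1 and, for Zscan4b (0.014), without Setdb1 KO replicate 2. The cause was not tested. Total counts normalization moved the median of all features for the combination over WT from -0.01 to -0.18. A fit that leaves 1 library in a condition assumes that it varies like the others. At 8 counts, Zscan4e in WT replicate 1 limits the precision of its fold changes.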
